A study of Mus musculus with 148 samples.

Results

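Immune checkpoint genes were measured in single immune cells of a mouse model of breast cancer lung metastasis. The set consisted of the inhibitory receptor genes Pdcd1, Lag3, Havcr2, Tigit and Cd160, the transcription factor gene Tox and the ligand gene Cd274. These 7 genes were taken by name from the 52634 gene rows of the plate tables. The first 6, with Tox counted among them, are called receptor genes here and were read across the T and NK cell labels. Cd274 was read across the myeloid labels.

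Single immune cells from 63 samples of 27 mice, sequenced in 12 batches, had been sorted and profiled by SPID-seq, a plate method that counts unique molecular identifiers (UMIs) near the 3′ end of transcripts. All animals were female C57BL/6 mice carrying photoactivatable GFP (PA-GFP), and all groups except the control lungs had received EO771-tdTomato cells, a red-labelled mouse breast cancer line, in the right inguinal mammary gland at 8 weeks of age. The tissues were control lungs of PA-GFP mice (3 samples), lungs of tumor-bearing mice before resection (Pre-MET, 3), primary tumors (4), and, after tumor resection at 3 weeks and weekly CT imaging, lungs of relapse-free mice (6), distal normal lung tissue (14), metastasis (13), photoactivated metastasis core (13) and photoactivated invasive margin (7). The 3 Pre-MET lungs and 3 of the 4 primary tumors came from the same mice, numbered 8, 9 and 10, and 13 mice gave both metastasis and distal normal tissue. Sorting took CD31-CD45+ cells, or CD31-GFP+ cells after photoactivation, so cells outside the illuminated area were missing from core and margin. Relapse-free mice 6 and 7 also gave plates sorted as GFP+ and GFP-, and the margin plates of mouse 17 carried a photoactivation target of NON-MET and an area label of ADJ, so results on the margin were also computed without them. All metastases came from 1 tumor line, and some mice gave core without margin or margin without core.

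After wells annotated as erythrocytes, tumor cells or outliers were set aside, 23425 annotated immune cells were used, of which 9356 were T or NK cells and 13014 were myeloid, and 3060 held at least 1 UMI of a member. Samples held 55 to 1974 cells and 48306 to 2745794 UMIs. The middle sample had a median of 3524.5 UMIs per cell in primary tumors and 812.25 to 1200.75 in the other tissues, so shares of cells with a UMI were taken after thinning each cell to 500 UMIs, and CPM (UMIs of a gene per 1e+06 UMIs of the cells summed) carried the comparisons of level. The authors' cell labels held markers of their own lineage, but several also held those of others. Cells labelled T_CD4_Lef1 contained more Cd8a (288 CPM) and Cd8b1 (535 CPM) than Cd4 (158 CPM), so this label is not treated as CD4 cells here. T_CD4_S100a4 held Cd4 at 164 CPM beside 182 for Cd8a and Cd8b1 summed. NK_Xcl1 held 5 T cell markers at a summed 1226 CPM beside 1952 for 4 NK markers, and their part in its receptor values was not tested. DC_cDC1 and DC_cDC2 held the monocyte and macrophage markers at 1771 and 2314 CPM and the dendritic cell markers at 790 and 1085 CPM. DC_pDC held both at similar levels (2798 and 2701 CPM), beside B cell markers at 426 CPM. The lists hold different genes, so their sums do not measure the content of another lineage. The monocyte and macrophage list also summed to 2200 CPM in T_CD8_Gzmk, where Ly6c2 alone was at 1858. T_Treg cells held Foxp3 at 343 CPM, and no Foxp3 UMI was found in T_CD8_Gzma or NK_Xcl1. Because labels came from clustering these cells, and because the label T_CD8_Lag3 carries the name of a member, differences between labels are descriptions and were not tested.

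PD-1 (Pdcd1), LAG-3, TIM-3 (Havcr2), TIGIT and CD160 are surface receptors that dampen or tune activation of T and NK cells, and several of them accumulate together on CD8 T cells under persistent antigen. TOX is a nuclear factor required for that exhausted state. PD-L1 (Cd274) is the main ligand of PD-1, is carried by tumor cells and by many myeloid cells, and is induced by interferon-gamma.

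Each gene had 1 row in the tables. In the GENCODE vM21 annotation of mm10, the genome build of the files, Pdcd1 lies at chr1:94038305-94052553 on the minus strand, Lag3 at chr6:124904361-124911705 on the minus strand and Havcr2 at chr11:46454935-46481255 on the plus strand. Tigit lies at chr16:43648867-43664146 on the minus strand. Tox spans chr4:6686353-6991557 on the minus strand and overlaps the antisense gene Gm11802, Cd160 spans chr3:96798763-96829351 on the minus strand and overlaps Pdzk1 on the other strand, and Cd274 spans chr19:29367455-29388095 on the plus strand and overlaps the antisense gene AC119228.1. Counts cover exons of the whole gene, so isoforms and soluble forms were not resolved.

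Across the 9 T and NK labels, 5 of the 6 receptor genes had their highest or second highest mean level in T_CD8_Lag3 cells, and T_Treg cells were next or above them for Pdcd1, Lag3, Havcr2, Tigit and Tox. Cd160 followed another order, with its highest mean in NK_Xcl1 cells, which rested on 3 primary tumors, and very little in T_Treg. Levels are means over samples with at least 5 cells of a label, and they pool unequal mixes of tissues. Without the highest sample, 27 of the 54 means fell by more than 1.5 times or to 0.

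Pdcd1 reached 543 CPM ± 540 (SD, n = 23 samples) in T_CD8_Lag3, 432 ± 419 (n = 11) in T_Treg and 196 ± 280 (n = 39) in T_CD4_S100a4. The remaining labels ran from 72.6 ± 114 (n = 54) in T_CD8_Gzmk, through NK_Xcl1 (49.1), T_CD4_Lef1 (39.0), T_CD8_Dapl1 (28.0) and T_CD8_Gzma (15.1), to 7.97 ± 44.7 (n = 56) in NK_Ncr1. Without the highest sample of each, 4 of these means were lower by more than 1.5 times, at 27.9 in NK_Xcl1, 11.0 in T_CD8_Dapl1, 4.68 in T_CD8_Gzma and 2.12 in NK_Ncr1. After thinning, 13.5% of T_CD8_Lag3 cells, 15.6% of T_Treg cells and 5.60% of T_CD4_S100a4 cells of an average sample held a Pdcd1 UMI. Pdcd1 was thus concentrated in 3 T cell labels and close to absent from the large NK_Ncr1 population.

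Lag3, a CD4-related receptor for MHC class II, stood at 231 CPM ± 448 (SD, n = 23) in T_CD8_Lag3, the label named after it. T_Treg followed at 51.0 ± 88.2 (n = 11), and the other labels lay between 2.11 in T_CD8_Dapl1 and 21.4 in T_CD4_Lef1. Single samples carried much of these means: T_CD8_Lag3 was at 144 without the core of mouse 34, T_Treg at 26.5 without the margin of mouse 36, and T_CD4_Lef1 at 6.43 without the core of mouse 31 (858 CPM from 4 UMIs). Outside T and NK cells, cells labelled DC_pDC (plasmacytoid dendritic cells) also held Lag3, with 16 UMIs in 12 of 73 cells, or 5.48% of cells after thinning, while monocytes held 0 UMIs in 6308 cells. Lag3 was the sparsest of the receptor genes, with 204 UMIs in 6846 T cells.

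Havcr2, the TIM-3 gene, was at 138 CPM ± 204 (SD, n = 23) in T_CD8_Lag3, 87.9 ± 120 (n = 11) in T_Treg and 64.1 ± 133 (n = 16) in T_CD8_Gzma. The other 6 labels were at 18.1 or lower, down to 1.25 in T_CD4_Lef1. T_Treg was at 57.2 without the margin of mouse 36 and T_CD8_Gzma at 35.1 without the metastasis of the same mouse. Most Havcr2 UMIs lay outside lymphocytes: monocytes held 1698 UMIs in 571 of 6308 cells, against 286 UMIs in 121 of 6846 T cells.

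Tigit, a receptor for the nectin-like ligand CD155, was highest in T_Treg at 551 CPM ± 415 (SD, n = 11), followed by T_CD8_Lag3 at 285 ± 254 (n = 23). Both NK labels also carried it, with 199 ± 292 (n = 56) in NK_Ncr1 and 137 ± 168 (n = 14) in NK_Xcl1. The remaining T cell labels lay between 20.4 in T_CD4_Lef1 and 71.4 in T_CD8_Gzma.

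Tox was at 188 CPM ± 218 (SD, n = 23) in T_CD8_Lag3 and 79.1 ± 121 (n = 11) in T_Treg, close to 73.8 ± 109 (n = 14) in NK_Xcl1. T_CD4_S100a4 (65.7), T_CD4_Lef1 (44.6), T_CD8_Dapl1 (42.9) and T_CD8_Gzmk (34.7) followed, and NK_Ncr1 (25.3) and T_CD8_Gzma (13.6) were lowest. The T_CD8_Dapl1 value rested on the primary tumor of mouse 38 (727 CPM, 9 UMIs in 5 cells), and without it the mean was 11.9, below NK_Ncr1. T_Treg was at 48.2 without the primary tumor of mouse 10, and T_CD8_Gzma at 3.26 without the relapse-free lung of mouse 18.

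Cd160, a receptor for HVEM, was at 221 CPM ± 377 (SD, n = 14) in NK_Xcl1, 148 ± 204 (n = 54) in T_CD8_Gzmk, 130 ± 148 (n = 23) in T_CD8_Lag3, 105 ± 213 (n = 16) in T_CD8_Gzma and 95.5 ± 161 (n = 56) in NK_Ncr1. Without primary tumors NK_Xcl1 was at 62.1 ± 127 (SD, n = 11), behind T_CD8_Gzmk (139), T_CD8_Lag3 (129), T_CD8_Gzma (105) and NK_Ncr1 (99.0). T_CD8_Gzma was at 55.4 without the distal normal tissue of mouse 17. Cd160 was at 28.0 in T_CD4_Lef1, 2.64 in T_Treg and 1.22 in T_CD8_Dapl1, with T_CD4_S100a4 between T_CD4_Lef1 and T_Treg. For all 6 genes, each label in the order differed from the next by less than the larger of the 2 SDs, so the order of neighbours is not firm.

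**Figure D1:**
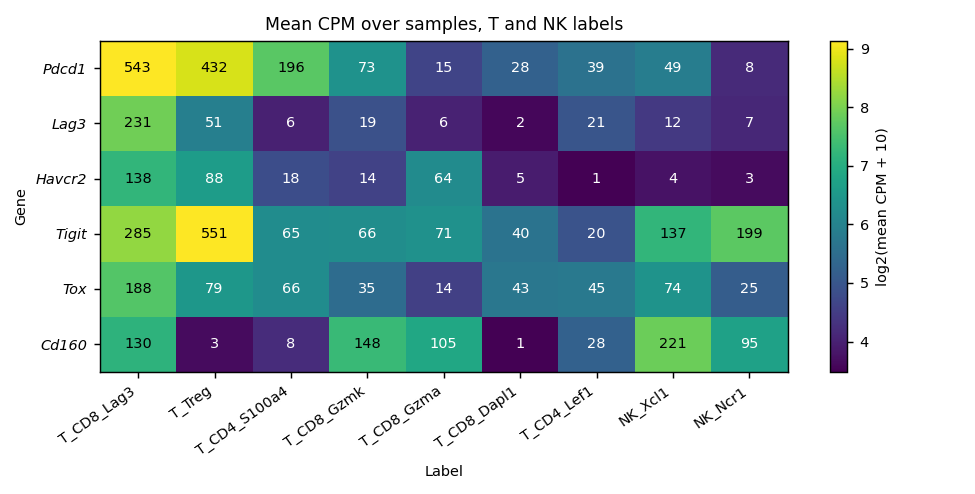
Heatmap of the mean CPM over samples of each receptor gene (rows) in the 9 T and NK labels (columns), coloured by log2(mean CPM + 10) and with the mean CPM printed in each cell. T_CD8_Lag3 is the brightest or second brightest column for Pdcd1 (543), Lag3 (231), Havcr2 (138), Tigit (285) and Tox (188), and Cd160 is brightest in NK_Xcl1 (221, or 62.1 without primary tumors).

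Single cells gave the same picture with fewer molecules. Of 347 T_CD8_Lag3 cells (median 1200 UMIs per cell), 110 held a Pdcd1 UMI (31.7%, or 17.9% after thinning), 74 a Tigit UMI (21.3%, 11.8%), 64 a Lag3 UMI (18.4%, 7.78%), 53 a Havcr2 UMI (15.3%, 8.36%), 52 a Tox UMI (15.0%, 7.49%) and 33 a Cd160 UMI (9.51%, 5.48%). Among 206 T_Treg cells (median 1495.5 UMIs), the thinned shares were 14.6% for Pdcd1, 13.6% for Tigit, 5.34% for Tox, 4.37% for Havcr2, 1.94% for Lag3 and 0.485% for Cd160. B cells, which carry few of these receptors, served as background: of 1055 B cells (median 1001 UMIs), thinned shares were 0.284% for Pdcd1, 0.190% for Tox, 0.0948% for Cd160 and 0 for Lag3, Havcr2 and Tigit. A count of 0 in 1055 cells reflects cells with a UMI and not absence of the transcript.

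Cells with UMIs of more than 1 receptor gene were most frequent in T_CD8_Lag3 and T_Treg. These labels also had the highest shares of cells with at least 1, at 39.2% and 33.5% after thinning. Whether genes occurred together more often than their single shares give was not tested. UMIs of 2 or more receptor genes occurred, after thinning, in 46 of 347 T_CD8_Lag3 cells (13.3%) and in 14 of 206 T_Treg cells (6.80%), against 19 of 1612 T_CD8_Gzmk cells (1.18%), 8 of 2312 NK_Ncr1 cells (0.346%) and 0 of 377 T_CD8_Dapl1 cells. NK_Xcl1 lay between, with 7 of 198 cells (3.54%). With all UMIs, 112 T_CD8_Lag3 cells (32.3%) held 2 or more, 31 held Pdcd1 with Lag3, 29 held Pdcd1 with Havcr2, and 1 cell held all 6.

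Within T_CD8_Lag3 the tissues differed in this count. After thinning, 2 or more receptor genes were found in 33 of 182 cells of the metastasis core (18.1%), 7 of 41 of the invasive margin (17.1%), 3 of 29 of primary tumors (10.3%) and 3 of 41 of metastasis (7.32%). None of the 18 cells of distal normal tissue, the 29 of relapse-free lungs or the 6 of control lungs did. With all UMIs primary tumors reached 17 of 29 cells (58.6%), in a tissue where cells held more UMIs. These cells came from few samples per tissue and were not tested.

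Levels of the receptor genes within T_CD8_Lag3 followed the tissues in part. Pdcd1 was at 769 CPM ± 638 (SD, n = 4) in metastasis, 653 ± 650 (n = 9) in the core, 609 ± 229 (n = 3) in primary tumors and 519 ± 417 (n = 3) in the margin, and at 0 in all 3 relapse-free samples (23 cells). Lag3 was also at 0 in those 3 samples and in 1 distal normal sample, against 371 ± 119 (n = 3) in the margin, 186 ± 88.7 (n = 3) in primary tumors and 85.8 ± 107 (n = 4) in metastasis, with 2 of 4 at 0. In the core its median was 86.8, with 4 of 9 samples at 0 and 1 at 2139. The Lag3 counts of 0 allow up to 71.2 CPM in the relapse-free lungs and 52.2 in distal normal tissue (9 cells). These limits are not far below the metastasis mean and the core median. Havcr2 stood highest in primary tumors at 433 ± 308 (n = 3), and so did Tox at 421 ± 278 (n = 3), against 117 ± 196 and 216 ± 252 in the core (n = 9). Cd160 was at 0 in all 4 metastasis samples (26 cells) and at 166 ± 162 (n = 9) in the core.

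The share of T cells labelled T_CD8_Lag3 also varied by tissue, which matters for sums over all T cells. It was 16.2% ± 11.6 (SD, n = 13) in the core, 11.1% ± 10.4 (n = 6) in the margin, 9.75% ± 12.98 (n = 13) in metastasis, 6.46% ± 3.95 (n = 4) in primary tumors and 2.65% ± 3.51 (n = 13) in distal normal tissue. T_Treg made up 21.5% ± 8.64 (n = 4) of T cells in primary tumors, 6.32% ± 4.29 (n = 13) in the core, 4.07% ± 6.65 (n = 13) in metastasis, 3.12% ± 2.96 (n = 6) in the margin and 0.135% ± 0.487 (n = 13) in distal normal tissue. A sum over a lineage by itself does not tell more cells of a label from more RNA per cell.

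For the comparisons between tissues, UMIs were summed over all T cells, or all NK cells, of each mouse and tissue with at least 10 such cells, and tested with edgeR's quasi-likelihood test across all genes with Benjamini-Hochberg adjustment. Members with under 10 UMIs over the samples compared were not tested. The metastasis core samples served in 2 comparisons, against the margin and against primary tumors, so these share samples. Labels do not state that samples of a group were processed apart, and p-values measure the spread between the mice sampled. The main fits held no term for the mouse, so 2 tissues of the same mouse were treated as independent. This applies to metastasis against distal normal tissue and to core against margin, where fits with the mouse as a block were alternatives.

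The comparison of metastasis with distal normal tissue of tumor-resected mice asked how T cells in lesions differ from those elsewhere in such lungs. In T cells, Tigit values were higher in metastasis and those of Cd160 lower, and the test of Tigit just missed the threshold. No receptor gene was called, among 0.768% of all genes called in either direction.

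Tigit ranged from 24.5 to 426 CPM (median 128, mean 155 ± 120 SD, n = 13) in T cells of metastasis and from 0 to 66.2 (median 29.5, mean 26.4 ± 27.1, n = 13) in distal normal tissue, where 6 samples were at 0. The groups overlapped, but 11 of 12 mice with both tissues were higher in metastasis. The fitted log2 fold change of Tigit was 1.93 ± 0.54 (SE), adjusted p = 0.0502 by edgeR's quasi-likelihood test. Within the 3 sequencing batches with at least 2 samples of both tissues the log2 fold changes were 2.34, 3.25 and 1.48.

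The call on Tigit depended on details of the fit. With RLE scaling edgeR's adjusted p was 0.0438, and with samples of 5 or more cells it was 0.0332. With the mouse as a block the log2 fold change was 2.13 and the adjusted p 0.308, and with each cell counted once per gene the fold change was 1.18 (adjusted p = 0.732). A permutation test of mean log2(CPM + 10) gave p = 4.0e-05 for Tigit and 0.0118 for Cd160, both unadjusted.

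Cd160 ranged from 0 to 128 CPM (median 16.4, n = 13) in T cells of metastasis and from 0 to 368 (median 106, n = 13) in distal normal tissue. It was lower in metastasis in 9 of 12 mice, higher in 1 and equal in 2. The log2 fold change was -1.51 ± 0.56 (SE), adjusted p = 0.215 by edgeR. Within T_CD8_Gzmk cells, which held much of it, Cd160 was at 55.7 ± 78.2 (SD, n = 9) in metastasis and 297 ± 326 (n = 11) in distal normal tissue, with a log2 fold change of -2.25 ± 0.75 (SE) and an adjusted p of 0.101.

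Havcr2 was at 0 in 11 of 13 distal normal samples and in 8 of 13 metastasis samples, with maxima of 112 and 109 CPM. Its log2 fold change was 2.20 ± 0.90 (SE, adjusted p = 0.311 by edgeR). Lag3 was at 0 in 9 distal normal and 7 metastasis samples, with a highest value of 381 CPM in metastasis and a log2 fold change of 1.53 ± 0.81 (adjusted p = 0.615). Taken singly, each gene thus had no UMI in most samples of both tissues.

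Pdcd1 ran from 0 to 511 CPM (median 91.9) in metastasis and from 0 to 218 (median 88.5) in distal normal tissue, and 7 of 12 mice were higher in metastasis. Its log2 fold change was 0.79 ± 0.46 (SE, adjusted p = 0.695 by edgeR), and that of Tox was -0.084 ± 0.66 (adjusted p = 0.999). Within T_CD4_S100a4 cells Pdcd1 was at 70.3 ± 107 (SD, n = 6) in metastasis and 406 ± 421 (n = 7) in distal normal tissue, whereas within T_CD8_Gzmk it was at 119 ± 172 (n = 9) and 21.5 ± 55.1 (n = 11). The log2 fold changes were -2.32 ± 0.89 (SE, adjusted p = 0.189) and 1.69 ± 0.88 (adjusted p = 0.485), and the difference between the labels was not tested. Of all genes, 0.0208% were called in T_CD4_S100a4 and 0 in T_CD8_Gzmk, where 785 of 7307 genes had an unadjusted p below 0.05. T_CD8_Lag3, T_Treg and NK_Xcl1 had too few samples for such a fit.

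To set label mix beside level, the CPM that T cells of metastasis would have shown at the label levels of distal normal tissue was computed from pooled UMIs. For Tigit the pooled level was 116 CPM in metastasis and 33.3 in distal normal tissue, and the metastasis mix at distal normal levels gave 73.9. For Pdcd1 the values were 164, 90.2 and 106, and for Cd160 they were 31.8, 72.8 and 76.7. With the metastasis mix, the distal normal value thus moved toward metastasis for Tigit and Pdcd1 and not for Cd160. The distal normal levels used came from 1 cell for T_Treg and 18 cells for T_CD8_Lag3, so the mix values are not firm. Summed neutrophil markers in T cells, a sign of RNA from other cells, ran from 0 to 2469 CPM in metastasis and from 139 to 4440 in distal normal tissue, and their part in these values was not tested.

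**Figure D2:**
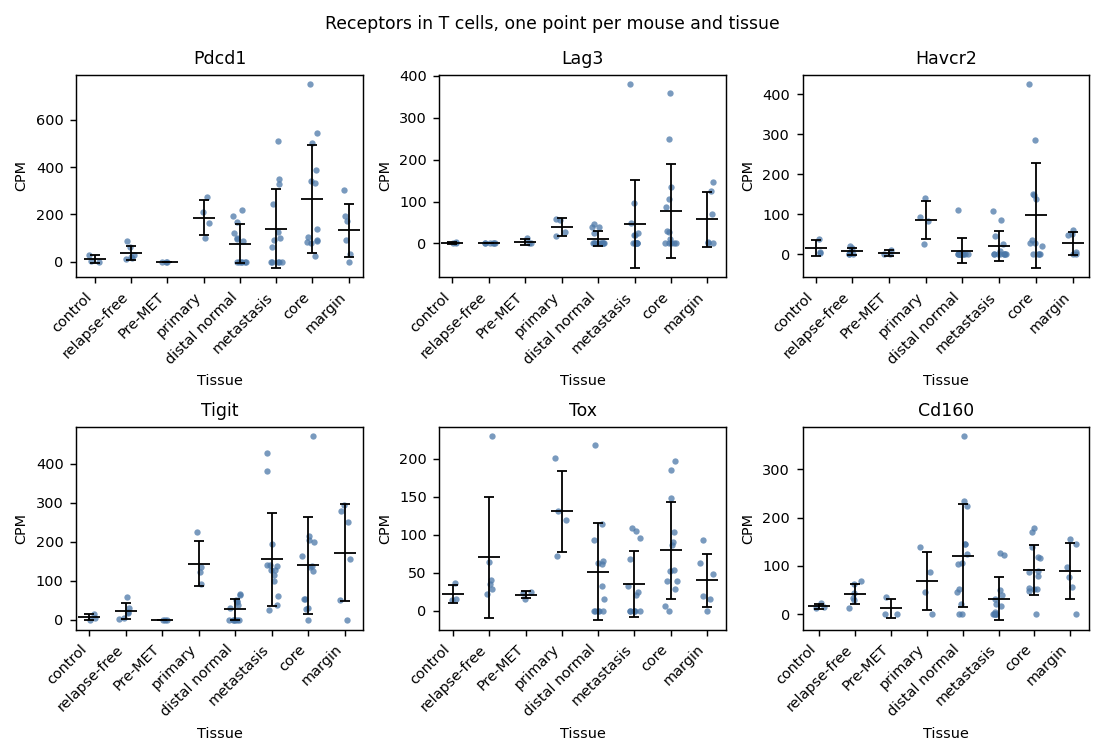
CPM of the 6 receptor genes in all T cells of each sample, by tissue, with 1 point per mouse and tissue and bars for the mean ± SD. Tigit lies between 24.5 and 426 in metastasis and between 0 and 66.2 in distal normal tissue, and Lag3 is at 0 in all 6 relapse-free lungs.

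The comparison of core with margin asked how cells inside a metastasis differ from those around it. In T cells, Pdcd1 and Havcr2 had higher values in the core, but no receptor gene was called, as only 0.0570% of all genes were. Pdcd1 ranged from 22.7 to 753 CPM (median 140, mean 267 ± 229 SD, n = 13) in the core and none of these samples was at 0. In the margin it ranged from 0 to 302 (median 132, n = 6), overlapping the core, with the margin of mouse 26 at 0. In 4 of 5 mice with both tissues Pdcd1 was higher in the core, and the log2 fold change was 0.89 ± 0.44 (SE, adjusted p = 0.799 by edgeR), or 0.76 without the margin of mouse 17.

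Havcr2 ran from 0 to 426 CPM (median 29.8, n = 13) in T cells of the core and from 0 to 62.1 (median 27.6, n = 6) in the margin. It was higher in the core in 5 of 5 mice, with a log2 fold change of 1.49 ± 0.68 (SE, adjusted p = 0.71 by edgeR), or 1.12 without the margin of mouse 17. The other fold changes were 0.63 ± 0.64 for Lag3, 0.86 ± 0.65 for Tox, -0.18 ± 0.47 for Tigit and -0.22 ± 0.54 for Cd160. Tigit was near equal on average, at 140 ± 123 (SD) in the core and 171 ± 124 in the margin. The neutrophil marker S100a8 was called lower in T cells of the core, by 1.52 on the log2 scale, and its part in these values was not tested.

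The comparison of primary tumors with the metastasis core asked how T cells at both tumor sites differ. No receptor gene was called in T cells, among 2.30% of all genes called. Pdcd1 in the 4 primary tumors was at 211, 101, 273 and 162 CPM in mice 8, 9, 10 and 38, all inside the range of the core. Tox was at 132, 71.6, 201 and 120 CPM in the same tumors and at 0 to 197 (median 54.5, n = 13) in the core, with a log2 fold change of 0.86 ± 0.52 (SE, adjusted p = 0.454 by edgeR). Havcr2 (140, 25.3, 84.6 and 93.0 CPM), Tigit (123, 135, 226 and 90.8), Lag3 (26.3, 16.8, 56.4 and 57.6) and Cd160 (0, 46.3, 87.7 and 140) also lay within the range of the core.

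The fold changes were -0.52 ± 0.43 (SE) for Pdcd1, -0.85 ± 0.62 for Lag3, 0.086 ± 0.56 for Havcr2, 0.036 ± 0.47 for Tigit and -0.088 ± 0.57 for Cd160. Primary tumors and core shared 1 sequencing batch, in which Pdcd1 was at 211 CPM in 1 primary tumor and at 545 and 753 in 2 core samples. On the log2(CPM + 10) scale the primary tumor differed from the mean of these core samples by -1.56 for Pdcd1, -1.70 for Lag3, -0.082 for Havcr2, -1.25 for Tigit, 0.43 for Tox and -3.29 for Cd160, with no test. The differences of Tigit and Havcr2 thus had the other sign than the fit. Those of Pdcd1, Lag3 and Cd160 had the same sign and were larger in size, and that of Tox was smaller. Neutrophil and erythroid markers were lower in T cells of primary tumors than of the core, S100a8 by 4.14 and Hba-a1 by 5.75 on the log2 scale, while Krt8 was higher by 3.96. The part of these in the results was not tested.

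T cells of Pre-MET and control lungs held few receptor UMIs. Pdcd1 and Tigit were at 0 in all 3 Pre-MET samples (290 cells), which allows up to 10.3 CPM over the group. In the control lungs of mice 1, 2 and 3, Pdcd1 was at 29.0, 2.88 and 0 CPM and Tigit at 16.1, 0 and 4.06. Of the 4 receptor genes tested, none was called, among 0.331% of all genes called, and the largest fold change was that of Pdcd1 at -4.21 ± 2.55 (SE, adjusted p = 0.486 by edgeR), which is no bound because 1 group was at 0. Lag3 and Tigit had too few UMIs to test. The 2 groups shared no sequencing batch, so batch and tissue cannot be told apart.

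Relapse-free lungs were not part of a fitted comparison. Their T cells held Pdcd1 at 12.4 to 86.1 CPM (median 22.8, n = 6) and Tigit at 2.09 to 57.4 (median 18.1), both overlapping distal normal tissue. Lag3 was at 0 in all 6 samples (2130 cells), which allows up to 1.01 CPM over the group. Havcr2 lay between 0 and 20.8, Tox between 22.2 and 230 and Cd160 between 12.5 and 68.1.

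In NK cells, Tigit and Cd160 were the receptor genes with most UMIs (494 and 434 in 2510 cells), followed by Tox (120), and Pdcd1, Lag3 and Havcr2 were rare (39, 25 and 7). After thinning, 4.86% of NK cells held a Tigit UMI and 2.87% a Cd160 UMI. Across tissues, Cd160 in primary tumors was the one receptor gene called.

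Cd160 in NK cells was at 540 CPM (24 UMIs in 10 cells) and 566 CPM (50 UMIs in 26 cells) in the primary tumors of mice 10 and 38. In the core it ranged from 0 to 261 (median 72.0, n = 11), so these groups did not overlap. In metastasis, which was not compared with primary tumors, it ranged from 0 to 547 (median 24.0, n = 8). The highest metastasis sample, that of mouse 24, thus reached the level of the primary tumors. The log2 fold change was 2.69 ± 0.67 (SE), with an adjusted p of 0.0161 by edgeR's quasi-likelihood test, and Cd160 was the only receptor gene called of 5 tested, among 0.575% of all genes called. The exact permutation test gave p = 0.0256, against a smallest possible value of 0.0128. With mouse 10 or mouse 38 left out, 1 tumor remained, whose spread was taken to be that of the core samples, and the adjusted p was 0.265 or 0.193 by edgeR, at fold changes of 2.71 and 2.68. The call was lost with samples of 5 or more cells (adjusted p = 0.0605 by edgeR), with each cell counted once per gene (0.684) and with DESeq2 (0.0940).

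The high Cd160 of primary tumors lay in NK_Xcl1 cells, at 806 CPM ± 437 (SD, n = 3 samples, 81 UMIs in 28 cells), while the 13 NK_Ncr1 cells of 2 samples had 0. In the core, NK_Xcl1 was at 85.4 ± 176 (n = 5) and NK_Ncr1 at 87.9 ± 97.5 (n = 12). The NK label mix differed with the tissue: in samples with at least 5 cells of a label, the core held 65 NK_Xcl1 and 309 NK_Ncr1 cells, and its part in the Cd160 result was not tested. Other tissues held Cd160 in NK cells at means of 22.5 CPM in control lungs, 51.4 in distal normal tissue, 90.9 in Pre-MET, 94.6 in the margin, 123 in metastasis and 129 in relapse-free lungs. Without their highest samples, control lungs were at 11.8 (mouse 2 left out), distal normal tissue at 18.1 (mouse 17), metastasis at 62.8 (mouse 24) and relapse-free lungs at 79.7 (mouse 29). Summed T cell markers in NK cells stood at 929 and 1463 CPM in the 2 primary tumors and at 146 to 1304 (median 419) in the core, and neutrophil markers were at 0 in both tumors and at 41.6 to 2198 in the core. Their part in the Cd160 result was not tested.

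Pdcd1 in NK cells was found in 4 of 11 core samples, at 39.4, 69.4, 187 and 189 CPM in mice 17, 28, 31 and 36. It was at 0 in all 5 margin samples (211 cells), all 7 distal normal samples (251 cells) and both primary tumors (36 cells), where a count of 0 allows up to 9.15, 7.02 and 22.6 CPM. It was also found in 1 of 6 relapse-free lungs (41.5 CPM from 5 UMIs, mouse 11) and in 1 of 8 metastasis samples (30.2 CPM from 1 UMI, mouse 28), close to or below the lowest core value above 0. All 4 mice with both core and margin were higher in the core. The unadjusted p of core against margin was 0.0011 and the adjusted p 0.219 by edgeR, and the exact permutation test gave p = 0.245. All 31 Pdcd1 UMIs of this comparison lay in the core, so the gene was tested only because of the core. The p-values and the count of mice are therefore descriptions and no support for a difference. No receptor gene was called in this comparison, among 0.0688% of all genes called. NK_Xcl1 cells of 5 core samples held 25 Pdcd1 UMIs in 65 cells, at 138 CPM ± 139 (SD).

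Tigit in NK cells was at 55.0, 80.5 and 86.4 CPM in the 3 control lungs and at 45.8, 0 and 0 in Pre-MET, with 1 UMI in 65 Pre-MET cells. It was at 79.3 and 90.0 in primary tumors, 0 to 284 (median 129, n = 7) in distal normal tissue, 0 to 483 (median 127, n = 8) in metastasis, 88.9 to 279 (median 241, n = 5) in the margin and 0 to 1345 (median 177, n = 11) in the core. The highest core value, 1345, came from 10 UMIs in 10 cells of mouse 26. None of these differences was called: the log2 fold changes were 0.20 ± 0.58 (SE) for metastasis against distal normal tissue, 0.20 ± 0.55 for core against margin, -1.42 ± 0.84 for primary tumor against core and -2.42 ± 1.63 for Pre-MET against control lungs.

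Tox in NK cells was at 90.6 and 158 CPM in primary tumors and at 0 to 153 (median 39.4) in the core, with a log2 fold change of 1.31 ± 1.04 (SE, adjusted p = 0.632 by edgeR). In control lungs it was at 39.3, 14.6 and 110, and in Pre-MET it was at 0 in all 3 samples, which with 65 cells allows up to 42.9 CPM. For NK cells in metastasis against distal normal tissue 0 genes were called by edgeR, 592 of 8302 had an unadjusted p below 0.05, and the 3 receptor genes tested had adjusted p-values of 0.914 or above. For Pre-MET against control lungs 0 of 3 were called, among 0.0949% of all genes. Within NK_Ncr1, where 2.40% of genes were called between metastasis and distal normal tissue, Tigit, Tox and Cd160 had adjusted p-values of 0.728 or above.

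**Figure D3:**
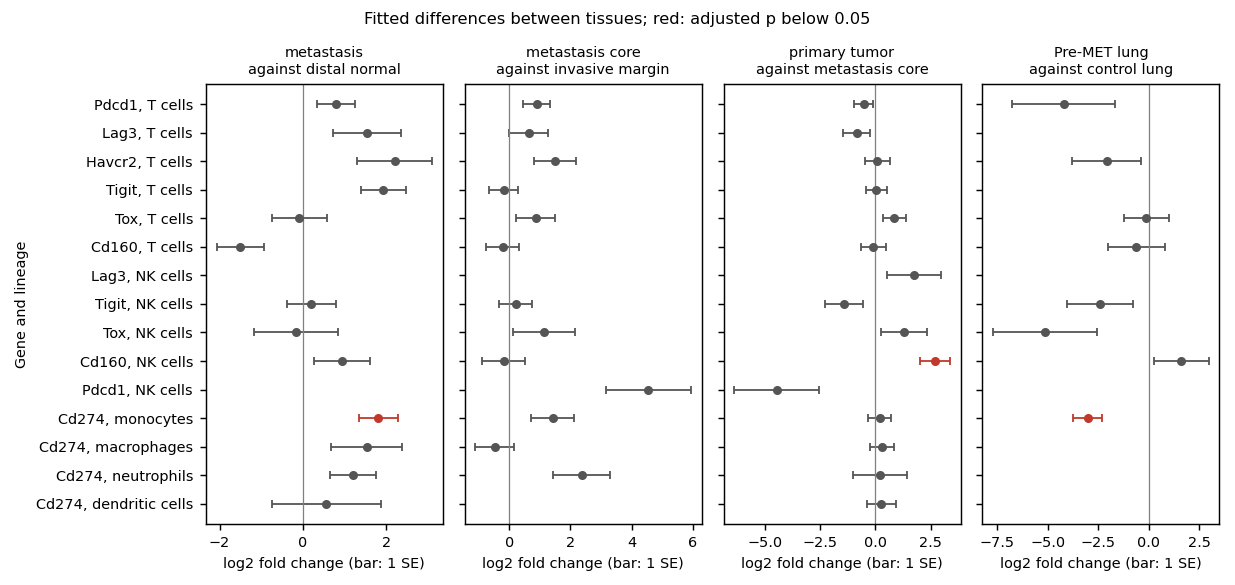
Fitted log2 fold changes ± 1 SE of the receptor genes in T cells and NK cells and of Cd274 in 4 myeloid lineages, for the 4 comparisons of tissues, with adjusted p below 0.05 in red. Cd160 in NK cells of primary tumors (2.69) and Cd274 in monocytes of metastasis (1.81) and of Pre-MET lungs (-3.01) are the points in red, and absent points were not tested.

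Outside lymphocytes, Havcr2 was carried by monocytes, macrophages and dendritic cells, where TIM-3 is known to occur. Thinned shares of cells with a Havcr2 UMI were 3.47% in monocytes, 0.352% in neutrophils and 0 in B cells. In monocytes Havcr2 was at 189 CPM ± 47.9 (SD, n = 4) in primary tumors, 105 ± 89.2 (n = 13) in metastasis, 101 ± 90.7 (n = 13) in the core, 86.9 ± 60.6 (n = 3) in control lungs, 50.9 ± 46.8 (n = 14) in distal normal tissue and 37.9 ± 10.2 (n = 3) in Pre-MET. Among dendritic cells, DC_cDC1 held it at 159 ± 144 (n = 18), and DC_migDC at 0 in 8 samples. No difference in Havcr2 passed the test in these lineages. The nearest was core against margin in neutrophils (28 UMIs against 0, adjusted p = 0.0543 by edgeR). Havcr2 was tested there only because of its UMIs in the core, so this p-value is no support for a difference.

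Pdcd1 outside lymphocytes was found mainly in migratory dendritic cells, with 58 UMIs in 9 of 117 DC_migDC cells, 26 of them in 1 cell. Samples with at least 5 such cells held 0 to 624 CPM, with 5 of 8 at 0.

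Cd274, the PD-L1 gene, was spread over nearly all myeloid labels at low levels, with 772 UMIs in 327 of 6308 monocytes (40 of them in 1 cell) and UMIs in 133 of 3972 neutrophils. Its highest mean levels were in Neut_PMN-MDSC, the authors' label for neutrophils resembling suppressor cells, and in migratory dendritic cells, which are known to carry PD-L1. The authors described Neut_PMN-MDSC by genes that include Cd274, so its level is a description of the label. The label also stood apart in erythroid markers, at 1808 CPM against 238 or less in the other labels, and their part was not tested. Cd274 was lowest in Mon_Fn1, the most frequent monocyte label.

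Neut_PMN-MDSC stood at 794 CPM ± 1631 (SD, n = 10 samples), a mean set by few cells. Of 110 Cd274 UMIs in 139 cells, 54 (49.1%) came from 1 cell, and 22 cells held any (15.8%, or 10.1% after thinning). Samples ran from 92.8 through 304 to 5372 CPM in 3 metastasis samples and averaged 497 ± 300 (n = 4) in the core. Without the metastasis of mouse 31 the mean was 286. DC_migDC was the steadier of the 2, at 243 ± 108 (n = 8), with 76 UMIs in 31 of 117 cells (26.5%, or 8.55% after thinning).

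Macrophages and monocytes followed: Mac_Gpnmb was at 102 CPM ± 97.4 (SD, n = 24), Mon_Thbs1 at 97.1 ± 78.2 (n = 35), Mac_Isg20 at 95.9 ± 115 (n = 24) and DC_pDC at 86.2 ± 149 (n = 3). Neut_Ptgs2 (81.0), Mon_Ace (71.4), Mac_Cd81 (55.8), Mon_MHC-II (52.2), Mac_Cd9 (49.3) and Neut_Camp (32.4) were intermediate. DC_cDC1 (27.6), Neut_Ifit3 (23.1), DC_cDC2 (21.1), Neut_Lcn2 (10.3) and Mon_Fn1 at 9.21 ± 18.9 (n = 61) were lowest. Mac_Isg20 was at 63.4 without primary tumors, and DC_cDC1 at 13.3 without the primary tumor of mouse 38. In Neut_Camp and DC_pDC the Cd274 UMIs of samples with at least 5 cells came from 1 sample each. Only the step from DC_migDC to Mac_Gpnmb exceeded the larger SD of the neighbours compared. The share of cells with a Cd274 UMI after thinning was 1.98% in monocytes and 1.91% in neutrophils (medians of 1452 and 989 UMIs per cell), against 1.14% in B cells, 0.745% in T cells and 0.717% in NK cells. Pooled levels were 49.4 CPM in monocytes and 75.1 in neutrophils, against 28.3 in B cells, 25.3 in NK cells and 18.9 in T cells.

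**Figure D4:**
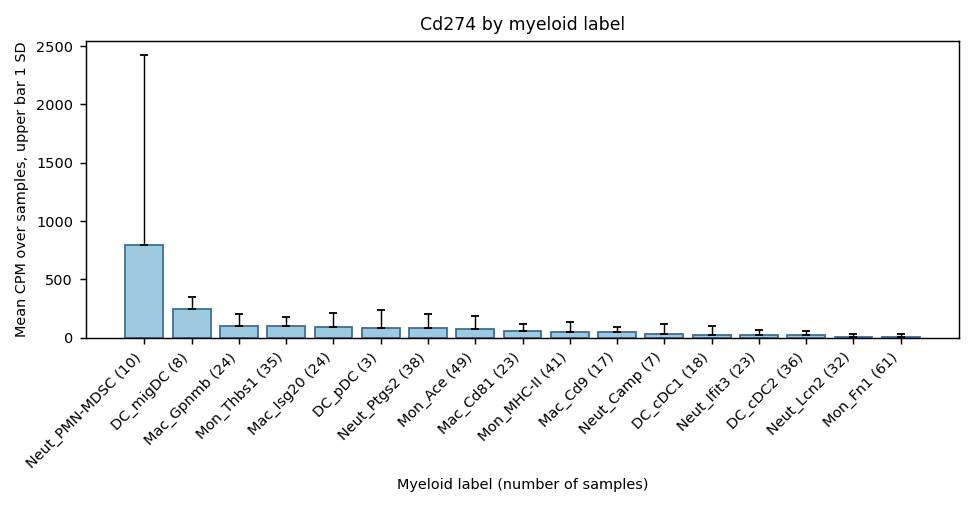
Mean CPM of Cd274 over samples in 17 myeloid labels, with an upper bar of 1 SD and the number of samples in parentheses. Neut_PMN-MDSC (794) and DC_migDC (243) are highest and Mon_Fn1 (9.21) is lowest.

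Monocytes of metastasis held more Cd274 than those of distal normal tissue. They ranged from 0 to 183 CPM (median 47.2, mean 61.0 ± 53.5 SD, n = 13), with 2 samples at 0, against 0 to 48.0 (median 10.2, mean 13.8 ± 14.8, n = 14), with 5 at 0, so the ranges overlapped. Cd274 was higher in metastasis in 11 of 13 mice, and it rose with a log2 fold change of 1.81 ± 0.47 (SE, adjusted p = 0.0221 by edgeR's quasi-likelihood test), among 1.78% of all genes called. A permutation test gave p = 0.00779. Thinned shares of monocytes with a Cd274 UMI were 2.67% and 0.802%.

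Within the 3 sequencing batches with at least 2 samples of both tissues, the fold changes in monocytes were 1.74, 3.11 and 1.72, none passing the test alone, and with batch as a term the value was 1.96 (adjusted p = 0.00399). With each cell counted once per gene the fold change was 1.14 and the call was lost (adjusted p = 0.210), and with DESeq2 it was 1.92 (adjusted p = 0.0572). The label mix moved as well. Mon_Thbs1 made up 25.5% ± 18.8 (SD, n = 13) of monocytes in metastasis and 5.28% ± 4.77 (n = 14) in distal normal tissue, and held Cd274 at 115 ± 71.9 (n = 10) and 94.8 ± 109 (n = 5). Pooled monocytes were at 57.1 and 19.9 CPM, and the metastasis mix at distal normal label levels gave 24.8. Neutrophil markers in monocytes ran from 180 to 5344 CPM in metastasis and from 248 to 4826 in distal normal tissue, and their part was not tested.

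Monocytes of the core were at 0 to 159 CPM (median 43.3, n = 13) and those of the margin at 0 to 147 (median 18.7, n = 6). The log2 fold change was 1.41 ± 0.71 (SE, adjusted p = 0.533 by edgeR), with 0.805% of all genes called, and it was 1.01 without the margin of mouse 17. All 5 mice with both tissues, mouse 17 among them, were higher in the core. With the mouse as a block in those 5 the fold change was 2.42 and passed the test (adjusted p = 0.0407 by edgeR). Within 2 sequencing batches it was 2.49 and 1.15. Mon_Thbs1 made up 43.7% ± 23.8 (SD, n = 13) of monocytes in the core and 11.7% ± 12.1 (n = 6) in the margin. Pooled levels were 89.1 and 17.8 CPM, and the core mix at margin label levels gave 37.2. The part of this mix was not tested. S100a8 was lower in core monocytes by 1.82 on the log2 scale, and its part was not tested.

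Monocytes of the primary tumors of mice 8, 9, 10 and 38 held 68.5, 44.9, 126 and 86.2 CPM, inside the range of the core, and the log2 fold change was 0.19 ± 0.50 (SE, adjusted p = 0.936 by edgeR), among 1.47% of all genes called. In the shared sequencing batch 1 primary tumor was at 68.5 and 2 core samples at 28.8 and 159. With all UMIs 17.8% of monocytes of primary tumors held a Cd274 UMI against 6.73% in the core, but after thinning the shares were 3.10% and 2.74%.

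Monocytes of Pre-MET lungs held less Cd274 than those of control lungs. The control lungs of mice 1, 2 and 3 were at 35.9, 111 and 97.0 CPM and the Pre-MET lungs of mice 8, 9 and 10 at 4.88, 16.6 and 7.56, without overlap. The log2 fold change was -3.01 ± 0.71 (SE, adjusted p = 0.0326 by edgeR), among 1.54% of all genes called. The exact permutation test gave p = 0.1, the smallest that 3 against 3 samples allow. Leaving out any of the 3 Pre-MET lungs, or control mouse 2 or 3, ended the call, with adjusted p-values of 0.0504 to 0.182, while without control mouse 1 it was 0.0224. The fold changes ran from -3.60 to -2.70 over the 6 samples left out in turn.

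The label mix of monocytes also differed between these lungs. Mon_Ace made up 59.0% ± 4.14 (SD, n = 3) in control and 22.6% ± 4.01 (n = 3) in Pre-MET lungs, and Mon_Fn1 made up 23.8% ± 0.944 and 69.6% ± 5.65. Within Mon_Ace, Cd274 was at 150 ± 70.2 in control and 36.4 ± 26.6 in Pre-MET lungs. Pooled levels were 84.7 and 9.56 CPM, and the Pre-MET mix at control label levels gave 36.5. S100a8 was higher in Pre-MET monocytes by 1.97 on the log2 scale, with neutrophil markers at 1055 to 1993 CPM against 275 to 665, and its part was not tested. The groups shared no sequencing batch, so batch and tissue cannot be told apart.

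Monocytes of relapse-free lungs were at 0 to 33.5 CPM (median 16.2, n = 6), overlapping distal normal tissue. They lay narrowly below all 3 control lungs, the lowest of which was at 35.9. This was not tested, and control lungs came from 1 sequencing batch and relapse-free lungs from 7.

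Macrophages held Cd274 at 44.6, 82.7 and 76.0 CPM in the control lungs, at 0 to 78.4 (median 14.2, n = 6) in distal normal tissue, 0 to 150 (median 86.8, n = 9) in metastasis and 0 to 187 (median 74.2, n = 10) in the core. The margin samples were at 28.3, 165, 94.4 and 169 and the primary tumors at 145, 66.5, 83.6 and 146. Fold changes were 1.53 ± 0.85 (SE, adjusted p = 0.370 by edgeR) for metastasis against distal normal tissue, -0.48 ± 0.63 for core against margin and 0.31 ± 0.55 for primary tumor against core. With a margin left out the second ran from -0.84 to -0.13, and with a primary tumor left out the third ran from 0.094 to 0.50. The macrophage labels differed too, with Mac_Cd9 at 7.65% ± 8.88 (SD, n = 9) of macrophages in metastasis and 63.6% ± 25.2 (n = 6) in distal normal tissue. Pooled levels were 75.6 and 48.2 CPM, and the metastasis mix at distal normal label levels gave 74.9. The distal normal levels of Mac_Isg20 and Mac_Gpnmb came from 7 and 19 cells, so this value is not firm. No fold change was called, among 2.74%, 0.475% and 2.49% of all genes, and too few Pre-MET samples held macrophages for a fit.

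Neutrophils of the control lungs held 0 Cd274 UMIs in 80 cells, which allows up to 43.9 CPM, and those of Pre-MET lungs were at 81.5, 0 and 14.2, with too few UMIs to test. In distal normal tissue they ran from 0 to 189 CPM (median 0, n = 9), in metastasis from 0 to 339 (median 13.4, n = 9) and in the core from 0 to 594 (median 108, n = 6). Of 126 Cd274 UMIs in metastasis neutrophils, 85 came from mouse 31, and 54 of these from 1 Neut_PMN-MDSC cell. The 5 margin samples ran from 0 to 46.3, with 2 at 0, and the primary tumors were at 136 and 258. The log2 fold changes were 1.20 ± 0.56 (SE, adjusted p = 0.430 by edgeR) for metastasis against distal normal tissue, 2.38 ± 0.93 (adjusted p = 0.298) for core against margin and 0.21 ± 1.20 for primary tumor against core, none called, among 0.419%, 0.181% and 0.917% of all genes. Within Neut_Ptgs2 the core was at 201 ± 191 (SD, n = 5) and the margin at 3.34 ± 6.69 (n = 4).

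Dendritic cells had 0 to 14.2 CPM in control lungs, 0 in 3 Pre-MET samples (37 cells, allowing up to 44.1), 0 to 210 (median 37.3, n = 10) in metastasis, 0 to 103 (median 55.5, n = 7) in the core and 135, 75.2, 44.0 and 107 in primary tumors. The fold changes of metastasis against distal normal tissue (0.56 ± 1.31 SE) and of primary tumor against core (0.27 ± 0.67) were not called, among 0.253% and 0.330% of all genes. The first was 4.36 without the distal normal tissue of mouse 17, 0.26 without that of mouse 23 and 0.0060 without that of mouse 27, and the second 0.082 without the primary tumor of mouse 8, 0.15 without that of mouse 38 and 0.49 without that of mouse 10. Migratory cells made up 28.4% ± 5.42 (SD, n = 4) of dendritic cells in primary tumors and 10.4% ± 6.74 (n = 7) in the core, while Cd274 within DC_migDC was at 194 ± 64.5 in the 4 primary tumors and 266 in 1 core sample.

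**Figure D5:**
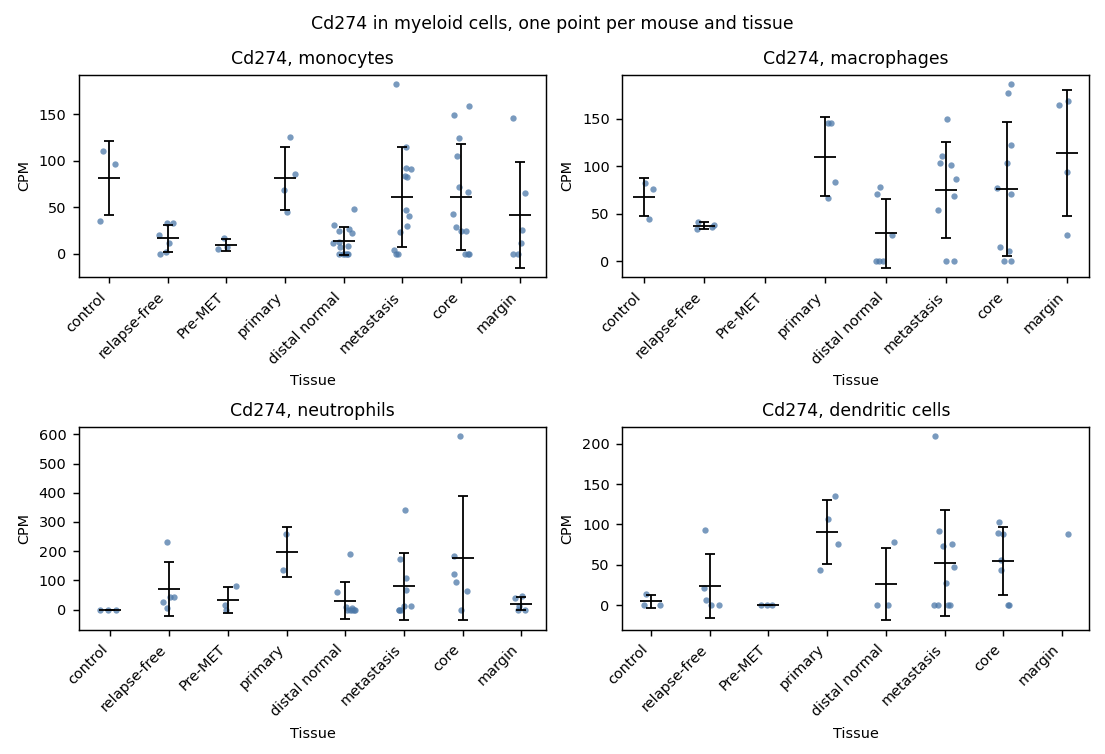
CPM of Cd274 per sample in monocytes, macrophages, neutrophils and dendritic cells, by tissue, with 1 point per mouse and tissue and bars for the mean ± SD. In monocytes the 3 control lungs lie between 35.9 and 111 and the 3 Pre-MET lungs between 4.88 and 16.6, while metastasis reaches 183 and distal normal tissue 48.0.

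Other genes of the checkpoint system were read from lists. Of 7 costimulatory receptor genes tested in T cells, 2 rose in metastasis against distal normal tissue, against 0.768% of all genes called. Tnfrsf4, the OX40 gene, had a log2 fold change of 4.31 ± 0.59 (SE, adjusted p = 5.5e-10 by edgeR). Tnfrsf9, the 4-1BB gene, had 3.14 ± 0.57 (adjusted p = 4.5e-05 by edgeR). The median over the list was 0.80, against 0.005 over all genes tested. The share of T_Treg among T cells moved with these genes, at 4.07% in metastasis and 0.135% in distal normal tissue, and its part was not tested. None of 7 other inhibitory receptor genes (median 0.26), 9 other ligand genes (0.52), 15 exhaustion-linked genes (0.35) or 7 interferon-gamma pathway genes (-0.19) was called. Between core and margin no gene of these lists was called in T cells.

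In T cells of primary tumors against the core, Icos (1.54), Tnfrsf4 (1.49) and Tnfrsf18, the GITR gene (1.27), rose among 7 costimulatory genes, and Ctla4 (1.57) among 7 other inhibitory receptor genes, all on the log2 scale. Of all genes, 2.30% were called in this comparison. Nectin3, a ligand-side adhesion gene, rose by 3.99 and Ikzf2, the Helios gene of regulatory T cells, by 2.77, while the immediate early gene Nr4a1 fell by 2.20. Treg cells were also more frequent in these tumors (21.5% against 6.32% of T cells), and their marker Il2ra was higher by 2.34. In T cells of Pre-MET against control lungs the only listed gene called was Id2, an inhibitor of E proteins, lower by 1.63, against 0.331% of all genes called. In NK cells the only one was Nr4a1, lower by 4.67 in primary tumors than in the core, against 0.575% of all genes called.

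In monocytes of metastasis against distal normal tissue, 1 of 11 other ligand genes was called, against 1.78% of all genes called. This was Cd276, the B7-H3 gene, at 3.19 ± 0.84 (SE, adjusted p = 0.0316 by edgeR). The list's median was 0.74, against -0.006 over all genes, and 0 of 7 interferon-gamma pathway genes were called (median 0.39). Tnfsf9, the 4-1BB ligand gene, was higher by 4.06 in monocytes of the core than of the margin. It was 1 of 10 ligand genes tested, against 0.805% of all genes called. In monocytes of Pre-MET against control lungs Nr4a1 was lower (-1.19), 1 of 11 exhaustion-linked genes tested, against 1.54% of all genes called. That list is named for exhaustion of T cells, and the name describes no state of myeloid cells here. Mon_Ace made up 59.0% of monocytes in control and 22.6% in Pre-MET lungs, and the part of this mix was not tested. In monocytes of primary tumors against the core Tcf7 (-3.59), Id3 (-2.36) and Nr4a2 (-2.12) were lower, 3 of 12 exhaustion-linked genes tested against 1.47% of all genes called, beside the neutrophil marker S100a8 (-3.70), whose part was not tested. In macrophages Socs1, a feedback inhibitor of interferon signalling, was higher by 5.72 in metastasis (adjusted p = 0.0346 by edgeR). It was 1 of 7 interferon-gamma pathway genes tested, against 2.74% of all genes called. The epithelial markers Epcam (-4.96) and Krt19 (-2.83) were lower there. The 4 epithelial markers summed stood at 821 CPM in Mac_Cd9 and at 7.46 or less in the other macrophage labels. Mac_Cd9 made up 7.65% of macrophages in metastasis and 63.6% in distal normal tissue, and the part of this mix was not tested. In macrophages Id3 was lower by 5.93 in primary tumors than in the core, 1 of 9 exhaustion-linked genes tested, against 2.49% of all genes called.

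Finally, the genes most like each member were taken from the 3 with the highest Pearson correlation of log2(mean CPM + 10) across the 27 immune labels, among 11947 genes with at least 200 UMIs. These points share libraries, and the values are descriptions. For Pdcd1 they were Icos (0.93), Il2ra (0.92) and Slamf1 (0.92), and for Tigit they were Gzmb, Il2rb and Ctla2a (all 0.91). Cd160 was closest to 1810006J02Rik (0.96), Klrc1 (0.96) and Klre1 (0.94), and Tox to Zap70 and Mir8113 (both 0.95). Lag3 was less closely matched, by Gpm6b (0.87), Sdr39u1 (0.84) and Ap3m2 (0.83), as were Havcr2, by Mcub (0.85), AC154994.2 (0.79) and Cnih4 (0.79), and Cd274, by Sqstm1 (0.86), Il1a (0.76) and Mdm2 (0.76).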

How the data were processed

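Per the labels and the study's methods, reads were demultiplexed (bcl2fastq 2.15.0.4), mapped to mm10 with HISAT, assigned to exons without multi-mapping reads and collapsed by UMI by the authors, who deposited whole UMI counts per gene and well, kept cells with at least 500 UMIs and annotated them after MetaCell clustering. Wells received single sorted cells, and no doublet caller was run. Wells of 56832 were joined to annotations, and no well name was used more than once. Replicates were mice, so counts were summed per mouse and tissue: label levels needed 5 cells, tested lineages 10 cells, and genes 10 UMIs over the samples compared. Wells left out of the immune cells numbered 595 of 24020 annotated wells.

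CPM was computed over all UMIs of the cells summed. Tests used edgeR 4.0.16 (glmQLFit and glmQLFTest, R 4.3.3), with TMM factors estimated from genes with UMIs in every sample compared, because factors from all genes were biased on simulated data, Benjamini-Hochberg adjustment over all genes tested and a threshold of 0.05. Alternatives included DESeq2 1.42.0, RLE scaling, other filters, permutation tests with 100000 draws where not exact, and the mouse as a block. The pairing by mouse comes from the labels: deviations of same-mouse samples correlated with a median of 0.187 in T cells and 0.233 in monocytes of metastasis and distal normal tissue, and 0.466 and 0.311 for core and margin. Shares were thinned to 500 UMIs per cell in Python 3.11.15 (pandas 2.3.3; scipy 1.17.1; numpy 2.4.6), and the floor for a count of 0 was 3 UMIs. Floors cover counting error only. Members and gene lists were chosen with earlier results of these data known. Named genes were the 7 members, at most 4 called genes per list and comparison, and 3 like genes per member; genes of other cell types named beside results were chosen after their values were seen. Some genes that these rules name are not reported here.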

Additional observations from a re-analysis of the deposited data

Results flagged for a closer look

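In 14 of 54 groups of 4 to 10 samples with a member above 0, 1 sample lay apart from the rest by Dixon's 95% criterion, which chance alone meets in about 1 group of 20 for normally distributed values. In these sparse counts a group with 1 sample above 0 meets it by construction, as 6 of the 14 did, so the number of groups cannot be read against that rate. Among T cells this was Tox in the relapse-free lung of mouse 29, at 230 CPM (8 UMIs in 47 cells) against 64.3 in the next sample.

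In NK cells most such values rested on few UMIs. Pdcd1 was at 41.5 CPM in the relapse-free lung of mouse 11 (5 UMIs) and at 30.2 in the metastasis of mouse 28 (1 UMI), with 0 in the other samples of each group. Havcr2 was also at 30.2 in the metastasis of mouse 28 and at 5.32 in the relapse-free lung of mouse 6, each from 1 UMI. Lag3 was at 17.3 in the metastasis and at 44.5 in the margin of mouse 31, each from 1 UMI. Cd160 was at 378 in the relapse-free lung of mouse 29 (4 UMIs in 16 cells, next sample 121) and at 252 in the distal normal tissue of mouse 17 (23 UMIs in 45 cells, next sample 84.5).

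For Cd274, neutrophils stood apart in the relapse-free lung of mouse 35 at 232 CPM (61 UMIs, next sample 44.3), in the distal normal tissue of mouse 36 at 189 (next 60.3) and in the core of mouse 28 at 594 (9 UMIs in 19 cells, next 183). Dendritic cells did so in the relapse-free lung of mouse 6 at 93.3 (next 20.8) and in the metastasis of mouse 31 at 210 (13 UMIs in 14 cells, next 92.0).

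Members were also found in wells outside the immune cells used. The 336 wells annotated as erythrocytes held 19 UMIs of Pdcd1, 41 of Tigit, 34 of Cd160 and 17 of Cd274. The 165 outlier wells held 6 UMIs of Cd274, in 4 wells. The 94 tumor wells held 7 UMIs of Pdcd1, 6 of Lag3, 8 of Havcr2, 13 of Tigit, 10 of Tox, 8 of Cd160 and 7 of Cd274, the last in 6 wells. The 128 wells with 500 or more UMIs and no annotation held 7 UMIs of Lag3, 26 of Havcr2, 12 of Tigit, 4 of Tox and 32 of Cd274. Each of these counts exceeds 3 UMIs, the limit that a count of 0 allows.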

How the results depend on the processing

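Of 216 results of tests under other settings, not counting those with a sample left out, 196 were classed as the same. For Cd274 this meant the direction of its fold change and its side of the threshold. For T and NK cells it referred only to the number of receptor genes called, so directions of their fold changes were not compared. Of the results with a sample left out, 58 were the same, 7 weaker and 2 reversed. The number of receptor genes called in T cells of metastasis against distal normal tissue rose from 0 to 1 with RLE scaling, with samples of 5 or more cells and in the same mice without a replicate block. By permutation test, whose p-values are not adjusted, 2 passed 0.05. With the replicate block it stayed at 0. Calls over all genes there fell from 90 to 8 with the block and to 2 with DESeq2. In NK cells of primary tumors against core the count fell from 1 to 0 with samples of 5 or more cells, with each cell counted once per gene, with DESeq2 and with either tumor left out (0 to 0).

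For Cd274 in monocytes of metastasis against distal normal tissue the values off the threshold were 1.14 (each cell counted once), 1.92 (DESeq2) and 1.74, 3.11 and 1.72 (within batches). Core against margin in monocytes reached 2.42 with the replicate block, in mice that included mouse 17 (adjusted p = 0.0407 by edgeR). It was 1.01 to 2.19 with a margin left out. Against the same mice without it, the block, which pairs tissues of a mouse, also ended the call of Tigit in T cells (adjusted p of 0.0354 without and 0.308 with it). Against all samples it changed no other call. Pre-MET against control lungs gave -3.35 in cells of 1000 or more UMIs, -1.73 with each cell counted once, -2.14 by permutation test and -3.60 to -2.70 with a sample left out. Values that turned sign were not called: monocytes of primary tumors against core -0.087 in cells of 1000 or more UMIs and -0.064 to 0.44 with a tumor left out, neutrophils -0.26 with TMM over all genes and -0.18 to 0.65 with a tumor left out, and macrophages of core against margin 0.092 with batch as a term. Dendritic cells of primary tumors against core gave 0.56 in the shared batch alone. The cause of these shifts was not tested.

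Other ranges with a sample left out were 0.0060 to 4.36 for dendritic cells of metastasis, 0.082 to 0.49 for those of primary tumors, -0.84 to -0.13 for macrophages of core against margin, 0.094 to 0.50 for those of primary tumors and 2.22 to 3.01 for neutrophils of core against margin. The receptor counts of the other T and NK comparisons stayed at 0. All 212 mean levels under other summaries or without primary tumors moved by less than 1 SD between samples, but these SDs were often larger than the means. All 71 means without the highest sample also did so. Leaving out 1 sample cannot move a mean by 1 SD, so this says nothing about stability. Without the highest sample, 27 of 54 receptor means and 4 of 17 Cd274 means fell by over 1.5 times or to 0. With all UMIs, 19 of 71 shares moved by more than 1 SD. The default expression filter of edgeR kept no member in several fits, which then gave no value. Counting each cell once, TMM over all genes, the same mice without the block, the batch fits of core against margin, the single batches and RLE scaling within labels, and leaving out the highest sample of a mean, the primary tumors from a mean, the margins or groups of up to 5 samples other than those planned were chosen after seeing the data. Most samples held under 10 UMIs of each receptor gene.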
